A study of Mus musculus with 4 samples.

Results

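Cells of the neutrophil lineage were examined in single-cell RNA libraries of mouse brain tumors. Neutrophils are short-lived blood granulocytes made in the bone marrow. Their precursors fill granules in a fixed order, with primary granule proteases such as Elane and Mpo made at the promyelocyte stage, secondary granule proteins such as Ltf, Camp and Ngp at the myelocyte stage, and gelatinases such as Mmp9 later. Division ends before the cells mature, gain the chemokine receptor Cxcr2 and enter the blood. Normal brain tissue holds few of them.

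A cell was selected when it had UMIs (unique molecular identifiers, each 1 counted RNA molecule) of at least 3 different genes among S100a8, S100a9, Retnlg, Camp, Ngp and Csf3r, at least 5 UMIs over these 6 genes, at most 1 of C1qa, C1qb and C1qc, and fewer than 3 UMIs of the firefly luciferase and human MYCN transgenes. This rule took 85 of the 10976 cells that passed the filters, with 200 or more genes, a mitochondrial share under 25% and no more than 40000 UMIs. S100a8 and S100a9 encode the subunits of calprotectin, Camp the antimicrobial peptide cathelicidin, Ngp neutrophilic granule protein, Retnlg resistin-like gamma, and Csf3r the receptor for granulocyte colony-stimulating factor. The levels of these 6 genes chose the cells and are given as a description, without a test.

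The tumors came from 4 mice of 1 genotype, hGFAP-cre::Trp53Fl/Fl::lsl-MYCN. In it the hGFAP promoter drives Cre recombinase in radial glia and their progeny, so that human MYCN is switched on and Trp53 is deleted there. Mice 4 and 5 were 43 days old (P43) and mice 6 and 7 were 70 days old (P70), with 1 library per mouse and no tumor-free brain among them. Red blood cells had been lysed and dead cells removed before loading. The libraries held 15044263, 13106786, 18698291 and 40621958 UMIs in mice 4, 5, 6 and 7, of which 3319, 1456, 2732 and 3469 cells were kept. The kept cells had medians of 1419, 4200.0, 4586.5 and 10449 UMIs.

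Several features of the libraries bear on all values that follow. Of the 85 selected cells, 72 came from mouse 6, 7 from mouse 5, 4 from mouse 4 and 2 from mouse 7. RNA of 4 genes of the Y chromosome reached 181.5 CPM (counts per 1000000 UMIs) in transgene-low cells of mouse 4, a mouse labelled female, whereas mouse 5, labelled male, had 0.520 CPM, while mice 6 and 7 matched their labels. Between libraries, 12 cell barcodes were shared among the kept cells.

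Within mouse 6, some selected barcodes were nearly copies of each other. In 3 groups of 14, 5 and 4 barcodes, the counts of barcode pairs were about as alike as sampling noise alone would leave them, with a chi-square per degree of freedom of at most 1.42 for any pair. The groups were formed by a limit of 1.5 on this value, so low values within them follow from that choice. The median of this value was 1.06, 0.852 and 0.960 in these groups, against 3.74, 5.89 and 6.04 for pairs of other selected cells of the same depth. The lowest values of those other pairs were 1.061, 2.84 and 3.44. The barcodes of the largest group differed in at least 7 letters. Counted as 1 profile per group, the 72 barcodes gave 52 profiles. Whether the barcodes of a group held 1 cell was not tested. Groups of this kind also held 10 of 32 C1q macrophages of mouse 4, 3 of 41 of mouse 5, 9 of 475 of mouse 6 and 16 of 98 of mouse 7. C1q macrophages were cells with at least 2 of the 3 C1q genes, at least 5 UMIs over them and fewer than 3 transgene UMIs. In mouse 6, counts of listed genes past 2-fold, the share of selected cells and the shares by cell cycle genes are also given with these groups counted once where that changed them. Other counts and shares of cells are over all barcodes.

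The selected cells took 0.120% of the kept cells of mouse 4 (95% exact binomial interval 0.0329 to 0.308), 0.481% of mouse 5 (0.194 to 0.988), 2.63% of mouse 6 (2.07 to 3.31) and 0.0577% of mouse 7 (0.00698 to 0.208). The share in mouse 6 lay above the intervals of the other mice, and counting each repeated profile once it was 1.92%. These intervals cover counting error only. By age, the mean share was 0.301% ± 0.255 (SD, n = 2) at P43 and 1.35% ± 1.82 (SD, n = 2) at P70. The ages overlapped, since the P70 mice held both the highest and the lowest share, and the difference of 1.046 percentage points had p = 1.0 in an exact two-sided permutation test, which cannot go below 0.333 with 2 mice per age. Without mouse 6 the P70 share was lower than the P43 share, by −0.243 percentage points.

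**Figure D1:**
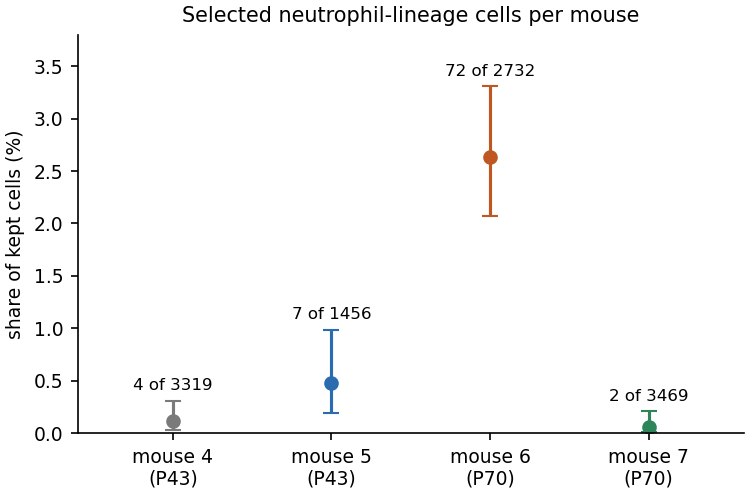
Share of kept cells (%) that were selected as neutrophil-lineage cells in each mouse, with the exact 95% binomial interval and the number of cells. Mouse 6 (72 of 2732) stands above the other 3 mice, and the P70 mice 6 and 7 hold the highest and the lowest share.

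The label was checked on markers that the rule did not use, and Camp and Ngp of the rule are given beside them where they had no UMI. In mice 5 and 6 the selected cells held RNA of the secondary granule genes Ltf (lactoferrin) and Lcn2 (lipocalin-2), of the gelatinase genes and of Cxcr2. Ltf had UMIs in 4 of 7 cells of mouse 5 and in 31 of 72 cells of mouse 6. Lcn2 had UMIs in 7 of 7 and 65 of 72 cells. In mouse 4, Camp, Ngp, Ltf, Elane and Mpo had no UMI in the 4 cells, Cxcr2 had 12 UMIs in 3 cells, 2 of the 4 cells held UMIs of at least 3 of 6 monocyte genes, and 3 of the 4 held at least 3 of 10 microglia and macrophage genes. That macrophage list summed to 4209 CPM in these cells, led by Apoe at 3436 CPM. In mouse 7, Camp, Ngp, Ltf, Lcn2, Elane and Mpo had no UMI in the 2 cells, which had 970 and 604 UMIs in all. Of the rule genes, the cells of mice 4 and 7 thus held S100a8, S100a9, Retnlg and Csf3r alone. Outside the rule, 13 of 15 mature neutrophil genes, mostly receptors, gave 43 UMIs in mouse 4. Their sum was 3693 CPM, against 1029 CPM in the C1q macrophages of that mouse. In mouse 7, 10 of the 15 gave 31 UMIs, at 19400 CPM against 1940 CPM. Of the primary granule genes, Prtn3 alone was seen in the cells of mice 4 and 7, with 1 UMI in mouse 4. The 11 secondary granule genes outside the rule gave 225 UMIs in mouse 4, of which 196 were Lyz2, 14 Hp, 9 Anxa1, 2 Cebpe, 2 Ltb4r1, 1 Lcn2 and 1 Chil3, and 2 UMIs in mouse 7. A count of 0 allows a level of up to 257.7 CPM over the 4 cells and of up to 1877 CPM over the 2 cells.

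The rule genes took 3.54%, 28.8%, 20.01% and 2.88% of the UMIs of the selected cells in mice 4, 5, 6 and 7. S100a9 was at 20700, 143700, 89600 and 16270 CPM in mice 4, 5, 6 and 7. Per cell, S100a8 and S100a9 together took from 5.71% to 42.4% of UMIs in mouse 5 (median 24.8%) and from 0.237% to 34.9% in mouse 6 (median 18.5%). The other mice reached 11.5% and 5.13%.

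The limit on UMIs had few cells near it, and the limit on genes had more. The selected cell with the fewest UMIs of the 6 genes had 10, 133, 10 and 11 in mice 4, 5, 6 and 7, and none lay between 5 and 9. Exactly 3 of the 6 genes were seen in 2, 1, 6 and 2 selected cells of mice 4, 5, 6 and 7, so that 2 of the 4 in mouse 4 and both in mouse 7 met it by no margin. With at least 4 genes and 10 UMIs, 2, 6, 66 and 0 cells were left. Just outside, 17 barcodes of mouse 6 and 2 of mouse 5 had at least 5 UMIs from 2 genes, with a median of 21.0 UMIs in mouse 6, where all 17 held S100a8 and S100a9 alone. Another 17 barcodes of mouse 6 met every condition except the limit on C1q genes.

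Background RNA was judged from cells that should lack these genes. In mouse 6, S100a9 had a UMI in 7.43% of 444 transgene-positive cells (median 5999.5 UMIs) and in 4.81% of 291 vessel cells (median 2090.0 UMIs). Camp was seen in 0.901% and 0.344% of the same cells. S100a9 summed to 764 UMIs in the transgene-positive cells and to 14 in the vessel cells. Retnlg gave 280 UMIs in 0.450% of the transgene-positive cells, so that some of them held many UMIs of it. Whether this was RNA from outside the cell or 2 cells under 1 barcode was not tested. All 72 selected cells of mouse 6 had S100a9 at a median of 1972.5 UMIs. Elane was seen in 0.225% of the transgene-positive cells and in 0 of the vessel cells, against 19 of 72 selected cells. Those 19 include all 14 barcodes of the largest repeated group, which count as 1 profile and held at least 4 UMIs of Elane each. Ltf was seen in 0.450% of the transgene-positive cells, 0.687% of the vessel cells and 3.58% of the C1q macrophages (median 5906 UMIs), and Lcn2 in 1.58%, 12.4% and 3.79%, against 43.1% and 90.3% of the selected cells. In mouse 5, Ltf and Lcn2 were seen in 0 of 257 transgene-positive cells (median 21329 UMIs, exact interval up to 1.425%) and in 0.600% and 2.00% of 500 vessel cells (median 3644 UMIs), against 57.1% and 100% of the 7 selected cells (median 4509 UMIs).

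The selected cells of mouse 6 fell on both sides of a split by the rule genes. On 1 side, UMIs of Camp plus Ngp exceeded those of Retnlg plus Csf3r (41 barcodes, or 21 profiles with repeated ones counted once). On the other side, Retnlg plus Csf3r were equal or higher (31 barcodes, none repeated). Mouse 5 had 3 and 4 cells on these sides, and the selected cells of mice 4 and 7 all lay on the Retnlg/Csf3r side. Of the 72 barcodes, 7 lay within 5 UMIs of equality and 5 had no UMI of Camp, Ngp or Retnlg. Since 1 mouse alone had at least 5 cells on both sides, the sides were compared by their values and without a test.

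**Figure D2:**
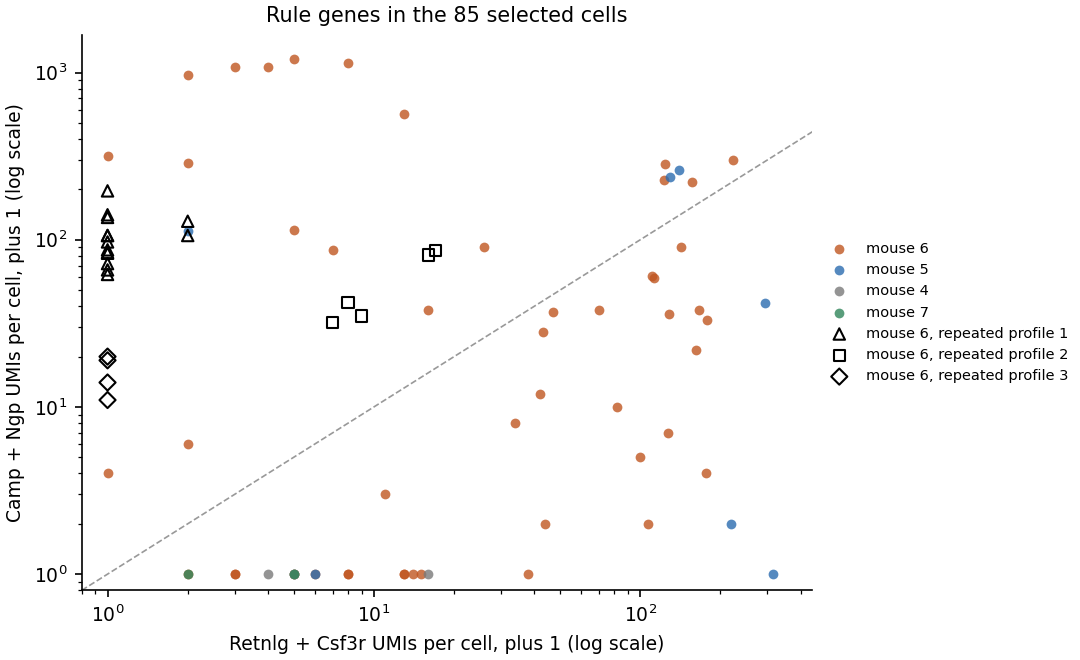
UMIs of Camp plus Ngp against UMIs of Retnlg plus Csf3r in each of the 85 selected cells, both plus 1 and on log scales, with mice in colors and the 3 groups of repeated profiles of mouse 6 as open symbols. The dashed line marks equality; the 4 cells of mouse 4 and the 2 of mouse 7 lie on the bottom edge, without Camp or Ngp.

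Of the 72 barcodes of mouse 6, 8 also held at least 50 UMIs of 6 monocyte or 8 dendritic cell genes. Of these, 1 was on the Camp/Ngp side and 7 on the Retnlg/Csf3r side, where they held 65775 of 117250 UMIs. Their median depth was 9604.5 UMIs against 1641 in the other 64. A limit in UMIs takes deep barcodes first, so shallow ones with such RNA can remain. At least 3 dendritic cell genes were seen in 9 barcodes, against 5 with at least 50 UMIs of that list. The 4 barcodes of the smallest repeated group, at 525 to 1024 UMIs, held 5 to 7 UMIs of it each and stayed on the Camp/Ngp side. Counts of listed genes and the leading genes of the lists are therefore also given without these 8 barcodes. In mouse 5, 1 of 7 cells was of this kind, with 39 UMIs of Siglech, a gene of plasmacytoid dendritic cells, summed over the cells of that mouse. It lay on the Retnlg/Csf3r side, where it held 13553 of 23909 UMIs, and the side values of mouse 5 include it.

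Over all 2085 genes with at least 20 UMIs on both sides together, 154 (7.39%) were at least 2-fold higher on the Camp/Ngp side of mouse 6 and 438 (21.0%) on the Retnlg/Csf3r side, with 10 CPM added to both levels. The median log2 difference of these genes was −0.32, so that counts in favor of the Retnlg/Csf3r side start from a shift. Without the 8 barcodes rich in monocyte or dendritic cell RNA the counts were 471 and 522.

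Primary granule genes, the earliest of the series, were on the Camp/Ngp side of mouse 6. All 6 were at least 2-fold higher there, with a median log2 difference of 3.06. Elane (neutrophil elastase) was at 4856 CPM (95% Poisson interval 4527 to 5202) on the Camp/Ngp side and at 119.4 CPM (65.3 to 200.3) on the other. Mpo (myeloperoxidase) was at 2221 and 255.9 CPM, and Prtn3 (proteinase 3) at 4340 and 511.7 CPM. Without the 8 barcodes, Elane, Prtn3 and Mpo had no UMI on the Retnlg/Csf3r side and stood at 3853, 3639 and 1541 CPM on the Camp/Ngp side. In the other mice, these 6 genes gave 1 UMI in mouse 4 and 0 in mice 5 and 7.

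This signal came from few cells. Of the 72 barcodes, 18 had at least 10 UMIs of primary granule genes, and 14 of those 18 were the largest group of repeated profiles. The 2 cells richest in these genes held 954 and 607 of the 2236 UMIs, and the 14 repeated barcodes held 534. The richest cell lay on the Camp/Ngp side by 4 UMIs (5 of Camp and 1 of Csf3r) and held 45.1% of the 2116 UMIs of that side. Without the 7 barcodes within 5 UMIs of equality, all 6 genes were still at least 2-fold higher on the Camp/Ngp side, with Elane at 3524 against 145.6 CPM and Mpo at 1250 against 351.8 CPM. Each of the 14 barcodes had between 4 and 49 UMIs of Elane and between 35 and 108 of Camp. Together they held 1 UMI of Retnlg and 0 of Ltf, 114 of Fcnb (ficolin B) and 94 of Lcn2. Counting each repeated profile once left Prtn3 at a log2 difference of 2.90, against 3.06 before.

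Secondary granule genes followed the same side. Of 11, 7 were at least 2-fold higher on the Camp/Ngp side of mouse 6 and 0 on the other, with a median log2 difference of 1.49. Not all 11 encode granule proteins, since Cebpe is a transcription factor and Ltb4r1 a receptor. Cebpe is among the 7 and is counted again in the list of transcription factors below. Without the 8 barcodes the count was also 7, but Cd177 left it (505.1 CPM on the Retnlg/Csf3r side and 710.3 CPM on the other) and Lyz2 joined it. Ltf was at 7371 CPM (6964 to 7795) against 443.5 CPM (331.2 to 581.6). Chil3, a chitinase-like protein, was at 5474 against 392.3 CPM, and Lcn2 at 12700 against 2951 CPM. Cebpe, the transcription factor that granulocytes need for secondary granules, was at 384.1 against 25.6 CPM. Ltf, with the 8 barcodes left out, was at 8229 against 757.6 CPM, Chil3 at 6091 against 194.3 CPM, Lcn2 at 14170 against 4604 CPM and Cebpe at 348.4 against 58.3 CPM. In mouse 5 all 7 genes were higher on the Camp/Ngp side too, with Ltf at 7985 and 83.7 CPM in 3 and 4 cells. Lyz2 (lysozyme), which macrophages also make, was at 12250 and 9066 CPM with all barcodes and was among the 4 genes that did not reach 2-fold.

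DNA upstream of 4 granule genes and of Retnlg is shown to set these groups beside each other. Each run covers bases 250 to 71 before the start of the gene in RefSeq (GRCm38.p6), 5′ to 3′ on its own strand. Capitals mark the letters TTNNGNAA or, read on the opposite strand, TTNCNNAA, a short form of the sequence bound by C/EBP factors, and both forms can overlap each other. They were present in this window of 33.2% of 27025 genes with a promoter in the table.
Ngp: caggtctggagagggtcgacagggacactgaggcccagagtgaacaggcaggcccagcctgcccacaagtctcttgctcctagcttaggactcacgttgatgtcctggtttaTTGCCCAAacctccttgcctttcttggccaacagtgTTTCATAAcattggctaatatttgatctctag
Ltf: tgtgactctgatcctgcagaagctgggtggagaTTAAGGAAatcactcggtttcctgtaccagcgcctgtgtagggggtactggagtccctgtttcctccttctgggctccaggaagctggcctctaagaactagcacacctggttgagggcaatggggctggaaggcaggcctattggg
Chil3: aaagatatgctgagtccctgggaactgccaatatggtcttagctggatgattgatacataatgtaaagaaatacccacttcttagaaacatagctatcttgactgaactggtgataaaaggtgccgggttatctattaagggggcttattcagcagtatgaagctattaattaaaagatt
Elane: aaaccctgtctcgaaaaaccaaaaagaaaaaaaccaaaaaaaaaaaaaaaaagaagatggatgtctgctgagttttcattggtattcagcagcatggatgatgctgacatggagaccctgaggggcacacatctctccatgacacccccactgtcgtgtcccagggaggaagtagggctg
Retnlg: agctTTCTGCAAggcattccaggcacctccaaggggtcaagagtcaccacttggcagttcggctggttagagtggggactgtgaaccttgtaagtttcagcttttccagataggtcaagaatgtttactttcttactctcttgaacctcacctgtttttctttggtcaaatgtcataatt

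The runs for Ngp, Ltf, Chil3, Elane and Retnlg lie at chr9:110419558-110419737 (+) for Ngp, chr9:111019042-111019221 (+) for Ltf, chr3:106167635-106167814 (−) for Chil3, chr10:79886062-79886241 (+) for Elane and chr16:48872358-48872537 (+) for Retnlg. The letters occurred at 2 places for Ngp, 1 for Ltf and 1 for Retnlg, and at none for Chil3 and Elane. In the same window they were found for 0 of 5 primary granule genes with a promoter in the table, 3 of 7 secondary granule genes, 3 of 5 tertiary granule genes and 9 of 13 genes of the receptor list. In the GENCODE annotation of GRCm38, all 17 genes looked up were protein coding. The runs end 10, 50, 71, 6 and 84 bases before the start given there for Ngp, Ltf, Chil3, Elane and Retnlg. Ltf lies at chr9:111019271-111042767, Ngp at chr9:110419747-110423012 and Camp at chr9:109847379-109849617, which places these 3 secondary granule genes on 1 chromosome.

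Genes of dividing cells were on the Camp/Ngp side of mouse 6. Of 8 cell cycle genes, 4 had enough UMIs and 3 of them were at least 2-fold higher there. Top2a (topoisomerase II alpha) had 47 UMIs on the Camp/Ngp side and 0 on the other. Mki67, which encodes the Ki-67 antigen, was at 384.1 CPM (295.8 to 490.5) against 127.9 CPM (71.6 to 211.0). Of 6 replication genes with enough UMIs, 3 were at least 2-fold higher on the Camp/Ngp side and 0 on the other, and in mouse 5 the 2 of these that had UMIs lay in the opposite direction. A single cell, the same that was richest in primary granule genes and lay on this side by 4 UMIs, held 77 of the 184 cell cycle UMIs of the side (41.9%). With repeated profiles counted once, 4 cell cycle and 2 replication genes were at least 2-fold higher there. Without the 8 barcodes, and also without the 7 near equality, all 4 cell cycle and all 6 replication genes were, beside 22.6% and 10.6% of all genes in these settings. Mki67 was then at 315.9 against 48.5 CPM without the 7. Outside the lists, the histone genes Hist1h2ap (33 and 0 UMIs), H1f4 (85 and 4) and H1f5 (73 and 4) were among the 10 largest differences to this side, beside Fcnb (263 and 16) and Orm1 (46 and 0), an acute-phase protein.

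Cells with UMIs of at least 2 of the 8 cell cycle genes were counted after each cell was thinned to 1000 UMIs. They were 3 of 31 cells on the Camp/Ngp side (9.68%, exact interval 2.04 to 25.7) and 0 of 28 on the Retnlg/Csf3r side (exact interval up to 12.3%). Thinning left out 10 and 3 shallower cells. Thinned to 2000 UMIs, the sides had 4 of 17 (23.5%) and 1 of 19 (5.26%), and no cell of either side then had UMIs of at least 3 of the 8 genes. With repeated profiles counted once the Camp/Ngp side had 3 of 19 (15.8%, 3.38 to 39.6), and without the barcodes near equality 2 of 29 (6.90%). At full depth they were 10 of 41 (24.4%) and 2 of 31 (6.45%), and 6 of 21 (28.6%) on the Camp/Ngp side with repeated profiles counted once. Among the 466 C1q macrophages of mouse 6 that reached 1000 UMIs, the share was 3.004% (1.65 to 4.99), inside the interval of the Camp/Ngp side. No cell of mice 4, 5 and 7 met the count, out of 4, 7 and 2 at full depth.

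Genes of mature neutrophils, 14 of receptors and Mxd1 of a transcription factor, were higher on the Retnlg/Csf3r side. Of the 15, 12 were at least 2-fold higher there in mouse 6 and 0 on the other side, with a median log2 difference of −1.53, and 11 were with repeated profiles counted once. Of the 14 receptors alone, the counts were 11 and 10. Cxcr2 was at 810.2 CPM (655.5 to 990.5) against 126.0 CPM (78.0 to 192.7) on the Camp/Ngp side. Il1r2, a decoy receptor for interleukin 1, was at 469.1 against 156.1 CPM, and Clec4d, a C-type lectin, at 315.6 against 42.0 CPM. In mouse 5, 9 of these 12 genes lay in the same direction, among them Cxcr2 at 1087 against 774.6 CPM. Without the 8 barcodes 13 of 15 were at least 2-fold higher on the Retnlg/Csf3r side, and Cxcr2 stood at 1535 against 140.7 CPM, Il1r2 at 932.5 against 174.2 CPM and Clec4d at 641.1 against 46.9 CPM.

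The sum of the tertiary granule genes lay in different directions in mice 6 and 5. In mouse 6, 2 of 6 were at least 2-fold higher on the Retnlg/Csf3r side, beside 21.0% of all genes. These were Mmp8 (neutrophil collagenase) at 1885 against 768.3 CPM and Adam8 at 503.2 against 114.0 CPM. Mmp9 was at 1075 against 600.2 CPM, and at 2001 against 670.1 CPM without the 8 barcodes, when 4 of 6 passed 2-fold. In mouse 5 the sum of the list lay in the opposite direction, at 4726 CPM on the Retnlg/Csf3r side and 7270 CPM on the other. On its Retnlg/Csf3r side, the 1 cell rich in dendritic cell RNA held 13553 of 23909 UMIs, with 45 UMIs of this list. The other cells there held 39, 28 and 1 UMIs of it, and the direction without that 1 cell was not examined. In mouse 5, Mmp8 was at 2468 and 3575 CPM on these sides, and Mmp9 at 1338 and 2681 CPM. Cybb, the catalytic subunit of the NADPH oxidase, which makes superoxide, was at 1083 CPM on the Retnlg/Csf3r side of mouse 6 and 1399 CPM on the other, under 2-fold. Without the 8 barcodes it was at 602.2 against 1514 CPM, past 2-fold.

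Cytokine and chemokine genes were on the Retnlg/Csf3r side. Of 12, 7 had enough UMIs and 5 were at least 2-fold higher there in mouse 6, all 5 in the same direction in mouse 5. Il1b (interleukin 1 beta) was at 1706 CPM (1478 to 1959) against 96.0 CPM (54.9 to 156.0), and at 2506 against 26.8 CPM without the 8 barcodes. Cxcl2, a neutrophil attractant, was at 409.4 against 36.0 CPM, and Ccl6 at 631.1 against 54.0 CPM. Leaving out the 8 barcodes, Cxcl2 stood at 679.9 against 40.2 CPM and Ccl6 at 1146 against 46.9 CPM. The count of cytokine and chemokine genes was then also 5, but its members changed. Ccl4 left it, at 77.7 CPM against 107.2 CPM on the Camp/Ngp side, and Osm joined it. Of 10 interferon-stimulated genes, 9 were at least 2-fold higher on the Retnlg/Csf3r side, 8 with repeated profiles counted once, 7 without the 8 barcodes and 5 without the 7 near equality. Ifit1 was at 537.3 against 186.1 CPM. In mouse 5, 5 of these 9 genes had UMIs and 3 of the 5 lay in that direction, and the list summed to 2970 CPM on the Retnlg/Csf3r side and 2384 CPM on the other. In mouse 6, much of this list came from few cells. Of its 798 UMIs on the Retnlg/Csf3r side, single barcodes held 147, 108, 96, 86 and 78. The barcodes with 147, 96 and 78 were among the 8 rich in monocyte or dendritic cell RNA. The barcode with 147 lay on this side by 1 UMI. The barcode with most, 181 UMIs over all 10 genes, lay on the Camp/Ngp side. That side held 481 UMIs of the list.

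Among 10 transcription factors of granulocytes, 7 had enough UMIs in mouse 6. With all barcodes, Cebpe alone was at least 2-fold higher on the Camp/Ngp side. On the Retnlg/Csf3r side these were Cebpb (2081 against 510.2 CPM), a factor of emergency granulopoiesis, and Irf8 (494.7 against 42.0 CPM), a factor of monocytes and dendritic cells. The counts of 1 and 2 stood beside 7.39% and 21.0% of all genes. Without the 8 barcodes they were 3 and 3, beside 471 and 522 of all 2085 genes. Irf8 then had no UMI on the Retnlg/Csf3r side and 46.9 CPM on the other, so that it joined Cebpe, as did Myb (93.81 against 38.85 CPM). Spi1 (738.2 against 361.8 CPM) and Klf2 (446.8 against 201.0 CPM) joined Cebpb on the Retnlg/Csf3r side. Cebpb kept its direction with a log2 difference of −2.45. Genes of blood progenitors were scarce, with 10 UMIs of Kit, 3 of Flt3, 2 of Cd34 and 1 of Sox4 in mouse 6.

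Monocyte and dendritic cell genes also lay on the Retnlg/Csf3r side when all barcodes were summed, with 5 of 6 monocyte genes and 4 of 4 dendritic cell genes with enough UMIs at least 2-fold higher there. The 8 barcodes were chosen by these genes, so the values without them say nothing more about these lists. The sum of the monocyte list in all selected cells was 2319, 786.4, 2723 and 0 CPM in mice 4, 5, 6 and 7, against 2441, 2610, 3660 and 2036 CPM in the C1q macrophages. Fn1 led it in mouse 4 and Ly6c2 in mice 5 and 6. The dendritic cell list summed to 257.7, 1327, 1599 and 1252 CPM, against 26020 CPM or more in the macrophages. Cd74 led it in mice 4, 6 and 7 and Siglech in mouse 5, and Xcr1 and Ccr7 were among the 3 genes at 0 in mouse 6. The microglia and macrophage list summed to 4209, 589.8, 1159 and 1252 CPM, and 12 of the 72 cells of mouse 6 held at least 3 of its 10 genes. Apoe led it in mice 4 and 5 and Cd63 in mouse 6. Cd63 lay on the side of the primary granule genes there, at 822.3 CPM on the Camp/Ngp side against 93.8 CPM. How much of this list's sum in mouse 6 was macrophage RNA was not tested. T and NK cell genes gave 49 UMIs in mouse 6, 43 of them of Nkg7, with Cd3e at 0. B cell genes gave 6 UMIs and the basophil, mast cell and eosinophil list 4. Vessel genes gave 56 UMIs in mouse 6, 48 of them in 1 cell, and oligodendroglial genes 29. Hemoglobin genes and Alas2 had no UMI in any selected cell.

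**Figure D3:**
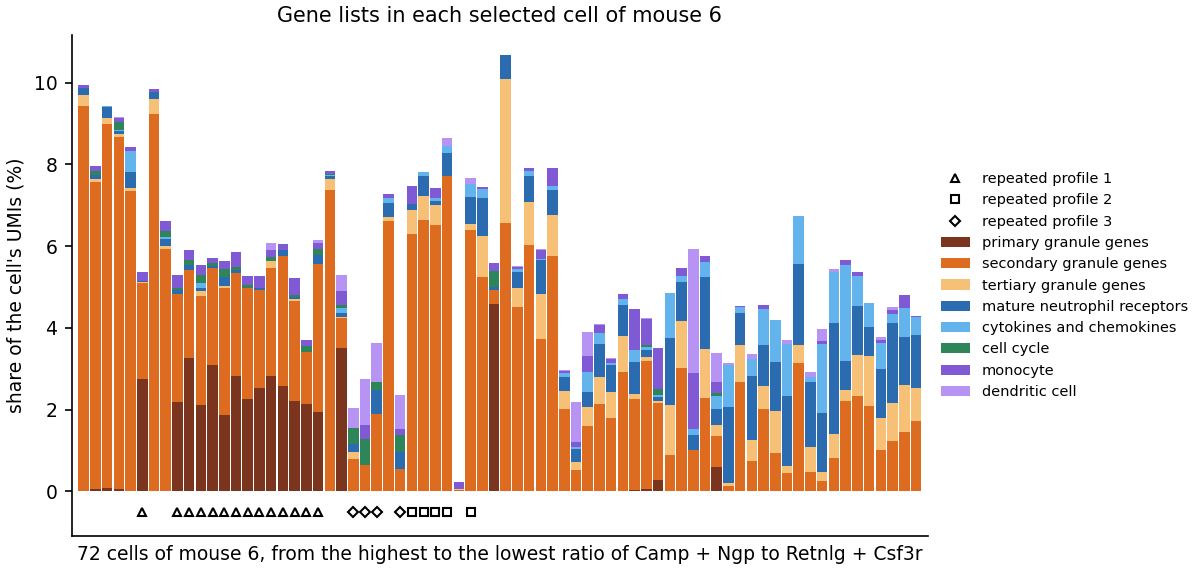
Share of each cell's UMIs (%) taken by 8 gene lists in the 72 selected cells of mouse 6, ordered from the highest to the lowest ratio of Camp plus Ngp to Retnlg plus Csf3r; symbols under the bars mark the 3 groups of repeated profiles. Primary granule genes stand mainly in the 14 barcodes of the largest repeated group and a few other cells on the left, and receptors and cytokines take more on the right.

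**Figure D4:**
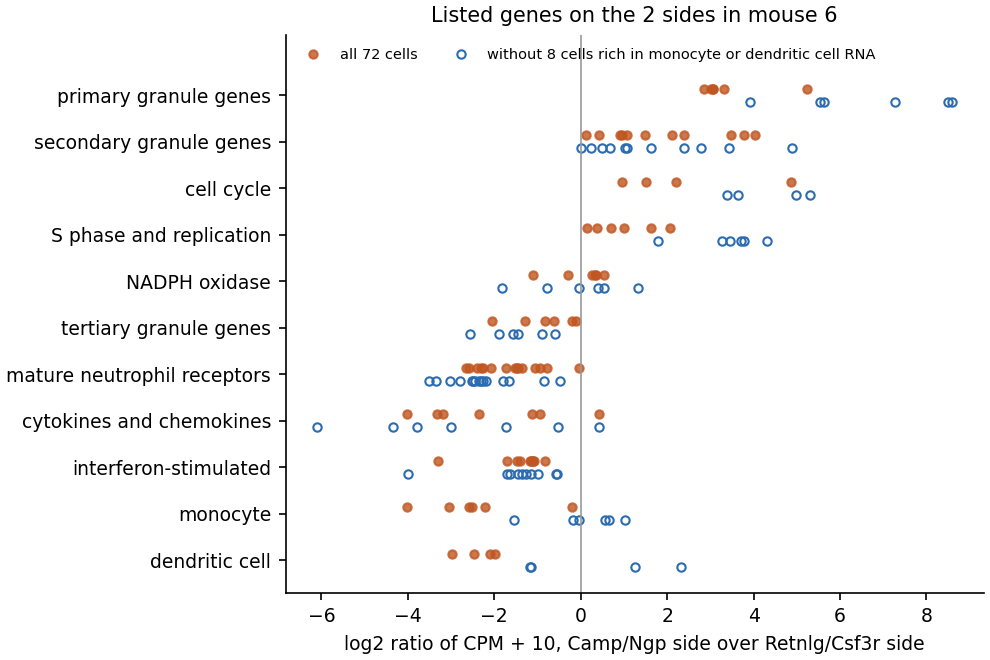
Log2 ratio of CPM plus 10 between the Camp/Ngp side and the Retnlg/Csf3r side in mouse 6 for each listed gene with at least 20 UMIs, with all 72 cells (filled) and without the 8 cells rich in monocyte or dendritic cell RNA (open). Primary granule genes lie to the right and receptors mostly to the left in both. The monocyte and dendritic cell genes that chose the 8 cells lie to the left with all cells.

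A comparison of gene levels between the ages was limited to values, since 1 mouse of each age had at least 5 selected cells. Ltf was at 3342 CPM in mouse 5 (P43) and 4509 CPM in mouse 6 (P70), and Lcn2 at 7422 and 8674 CPM. Mmp8 was at 2924 CPM in mouse 5, above its interval in mouse 6 (1230 CPM, 1104 to 1366). Cxcr2 was at 1031, 958.4, 408.7 and 1252 CPM in mice 4, 5, 6 and 7, with the lowest level in the mouse that held most Camp/Ngp cells. Il1b was at 3264, 639.0, 761.0 and 13770 CPM, resting on 38, 26, 216 and 22 UMIs. Age, mouse and the mix of both sides cannot be told apart in these values.

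Genes reported in neutrophils of tumors were sparse. Slc27a2 had no UMI in any selected cell, Nos2 had 1 and Vegfa 3, all in mouse 6. Wfdc17 had 7, 8, 71 and 2 UMIs in mice 4, 5, 6 and 7, and on the Retnlg/Csf3r side of mouse 6 it was at 571.4 CPM against 24.0 CPM. Its values were 233.1 and 26.8 CPM without the 8 barcodes, and without the 7 near equality 145.6 and 28.1 CPM. Cd274, which encodes the ligand PD-L1, had 13 UMIs in mouse 6 and 2 in mouse 4. The neutrophil growth factor Csf3 had no UMI in the selected cells.

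Ligands that attract neutrophils were read in all the other cells. Cxcl1 was at 2.02, 3.07, 53.3 and 5.16 CPM in mice 4, 5, 6 and 7, so that it was highest in the mouse with most selected cells. Cxcl2 was at 5.12, 30.6, 53.1 and 3.94 CPM in the same order. Cxcl12, which retains granulocytes in bone marrow, was higher in both P43 mice, at 350.6 and 740.8 CPM at P43 and 42.5 and 11.9 CPM at P70. Vessel cells numbered 653, 500, 291 and 33 in the same order, more in both P43 mice, and their part in these levels was not tested. Csf3 stayed at or under 0.853 CPM in all 4 mice, and Il17a was at 47.1 CPM in mouse 5 and at 2.09 CPM or less in the other mice. The part of these ligands in the number of selected cells was not tested.

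The C1q macrophages of the same mice served as the class for comparison. Mice 5 and 6, which had at least 5 cells of each class, entered edgeR's quasi-likelihood test on summed UMIs with the mouse as a block. Of 4301 genes, 350 (8.14%) were higher and 237 (5.51%) lower in the selected cells at a Benjamini-Hochberg adjusted p of 0.05. Both classes had been chosen by their counts in the same cells, so these calls describe the 2 classes and carry no further weight. Secondary granule genes (10 of 11), tertiary granule genes (5 of 6) and genes of the receptor list (10 of 15) were higher, with median log2 differences of 5.01, 5.06 and 3.204, against −0.10 over all genes tested. DESeq2 called 6, 5 and 8 of them higher. Ltf, Wfdc21, Chil3 and Lcn2, with adjusted p of 0.0578, 0.0578, 0.115 and 0.135, and Ccr1 and Clec4e, both at 0.123, were lost there. With all 4 mice in edgeR, 5 of 6, 0 of 1 and 8 of 13 genes of these lists that reached the count minimum were higher. Ltf, Mmp8 and Mmp9 did not reach it. Mmp9 was at 1892 and 796.2 CPM in the selected cells of mice 5 and 6 and at 0 and 6.32 CPM in the macrophages, a log2 difference of 7.86 ± 0.74 (SE). It was 11.1 against the 446 of 475 macrophages of mouse 6, and the 41 of mouse 5, that had fewer than 3 UMIs of the rule genes, and 6.15 with equal cell numbers. Cxcr2 was at 958.4 and 408.7 CPM against 0 and 4.32 CPM. Of the NADPH oxidase genes, Rac2 and Ncf1 were higher (adjusted p in edgeR of 0.000572 and 0.00160). With all 4 mice neither passed (0.115 and 0.0621), and in DESeq2 Ncf1 did not (0.0592). Cybb stood at 786.4 and 1268 CPM with a log2 difference of 0.34 ± 0.55 (SE) that did not pass. Primary granule genes did not reach the count minimum of the fit.

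Outside the lists, the 10 largest rises that went the same way in both mice were Stfa2l1, Asprv1, Abca13, Mrgpra2b, Il1f9, Ccno, Rdh12, Ripor2, Scrg1 and Pglyrp1. In DESeq2 Stfa2l1 and Pglyrp1 did not pass (adjusted p of 0.315 and 0.069). Pglyrp1, a peptidoglycan recognition protein of neutrophil granules, was at 2974 and 1504 CPM against 0 and 58.8 CPM. Asprv1, a retroviral-like aspartic protease, was at 466.9 and 84.5 CPM against 0 and 0.332 CPM. On the other side, 6 of the 7 tested microglia and macrophage genes were lower, among them Apoe (270.3 and 331.2 CPM against 16100 and 22110 CPM) and Cx3cr1 (0 and 21.1 CPM against 455.2 and 386.2 CPM). Apoe did not pass without the barcodes rich in monocyte or dendritic cell RNA (adjusted p in edgeR 0.0987, log2 difference −5.89). Of 5 dendritic cell genes tested, 3 were lower, Cd74, H2-Aa and H2-Ab1 (log2 differences of −5.60, −5.90 and −6.04). DESeq2 kept Cd74 alone of these. The other called gene, Siglech, of plasmacytoid dendritic cells, was higher in the selected cells, at 958.4 and 165.6 CPM against 12.14 and 11.97 CPM (log2 difference 4.88 ± 0.62, SE, adjusted p in edgeR 6.97e-13). Its UMIs lay in 1 cell of mouse 5 and 6 cells of mouse 6, and without the barcodes rich in monocyte or dendritic cell RNA, or with all 4 mice, it did not reach the count minimum. The 10 largest falls outside the lists, Ms4a7, Axl, C3ar1, Olfml3, Tmem37, Ccl12, Tmcc3, Tnfsf12, Dhrs3 and Slamf8, had no UMI in the selected cells of both mice, so that no fold is given. DESeq2 did not call 8 of these 10, with adjusted p from 0.521 to 0.779, and kept Axl and Tnfsf12. Il1b did not pass, at 639.0 and 761.0 CPM in the selected cells and 667.6 and 3341 CPM in the macrophages (log2 difference −1.005 ± 0.64, SE). With at least 4 rule genes and 10 UMIs asked of a cell it was called lower (log2 difference −2.38, adjusted p in edgeR 0.00355). The macrophages of mouse 6 held 0.961% of their UMIs in the 6 rule genes, against 0.00334% in mouse 5.

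**Figure D5:**
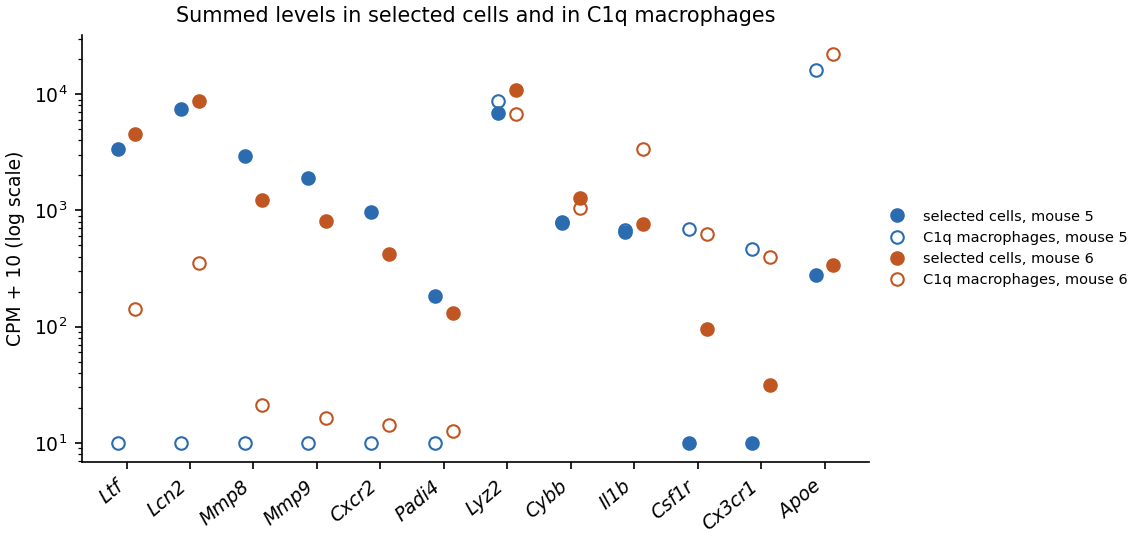
Summed level (CPM plus 10, log scale) of 12 genes in the selected cells (filled) and the C1q macrophages (open) of mice 5 (blue) and 6 (orange). Ltf, Lcn2, Mmp8, Mmp9, Cxcr2 and Padi4 lie higher in the selected cells of both mice and Csf1r, Cx3cr1 and Apoe lower, while Lyz2 and Cybb lie close in both.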

How the data were processed

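The deposited values were raw UMI counts per gene and barcode, which the authors made with Cell Ranger (6.0.2 per the submitters' processing notes) on mm10 extended by the transgenes; no normalization was applied. UMIs per cell and the cell filters used genes seen in at least 3 barcodes of a library, and levels were UMIs per 1000000 UMIs of the summed cells. No doublet caller was run; cells with RNA of other classes were counted instead. The members and the gene lists were chosen with earlier results of these data known. Some items are not reported here. Named genes were those of 25 lists and, for a test, the 10 largest rises and falls outside them in the same direction in both mice, without predicted genes. The tests planned for ages and sides needed 2 mice with at least 5 cells per group and could not be made. Members and C1q macrophages were tested with edgeR 4.0.16 in R 4.3.3 (TMM, filterByExpr, 1 residual degree of freedom, the 6 rule genes, C1q genes and transgenes untested). The SE of a log2 difference was its size divided by the square root of the test's F statistic, and is not a spread between mice. On simulated data for this comparison, 49.0% of 200 genes changed 4-fold were recovered at a dispersion of 0.05 and 8.00% at 0.2. Python 3.11.15 with scipy 1.17.1 gave the intervals and the permutation test. Nothing in the labels says more of replicates than 1 mouse per library. UMI counts of 1 library share its capture, so intervals cover counting error only. DESeq2 was run as an alternative, and further ones are listed at the end.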

Additional observations from a re-analysis of the deposited data

Results flagged for a closer look

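Signals outside the selection were seen in mouse 6 above the limit that a count of 0 allows. There, 17 barcodes met every condition of the rule except the limit on C1q genes, with a median of 1037 UMIs of the 6 rule genes and over 100 in 15 of them. Another 5 barcodes outside the rule held UMIs of at least 3 of the 6 primary granule genes, from 13 to 121 each, at a median depth of 12700 UMIs. A further 17 barcodes had at least 5 UMIs from S100a8 and S100a9 alone, the highest with 842. None of these 3 sets was seen in mice 4 and 7, and mouse 5 held 1 barcode of the last set and none of the others.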

How the results depend on the processing

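The share difference by age (P70 minus P43) kept its direction under 10 other cell filters, rules and denominators, between 0.687 and 1.36 percentage points; leaving out a mouse moved it between −0.243 and 2.34, the first without mouse 6. The count of genes at least 2-fold higher on the Camp/Ngp side of mouse 6 (154) was 471 without the 8 barcodes rich in monocyte or dendritic cell RNA, 300 for the mean over cells and 266 with at least 4 rule genes and 10 UMIs; the cause was not tested. On the Retnlg/Csf3r side the counts ran from 343 to 589. Against the C1q macrophages, DESeq2 called 156 genes higher and 56 lower, equal cell numbers 218 and 147, all 4 mice 108 higher, and the fit without the mouse block 145 lower; library sizes without TMM gave 274 and 227. Of 94 listed genes fitted, 10 turned direction in at least 1 alternative, and none of them had passed: F13a1, Ccl3, Ccl4, Cd63, Lyz2, Cyba, Fn1, Irf8, Il1b and Cebpb. Irf8 (0.28 log2) was −3.22 without the barcodes rich in monocyte or dendritic cell RNA, where it passed (adjusted p in edgeR 0.00208), Il1b was 0.32 with all 4 mice, and Cebpb (0.08) was −0.093 without TMM, −0.11 without the filter, −0.36 with equal cell numbers and −0.046 with all 4 mice. The settings on all 4 mice, repeated profiles, barcodes rich in other RNA or near equality, macrophages without rule RNA, totals and means over cells were chosen after seeing the data. Leaving out a mouse from this test left no residual degree of freedom and was not run, and the tool, scaling, filter, block and left-out-mouse alternatives for ages and sides were not run, as no test could be made. Between the ages, no paired analysis was possible because replicate numbers only name different mice. Depth limits mice 4 and 7 most, with 11643 and 1598 UMIs in all selected cells.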
